A study of Homo sapiens with 60 samples.

Results

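The genes of fatty acid and triglyceride synthesis were followed here through HepG2 cells, an established human hepatocellular carcinoma line, treated with vehicle, the kinase inhibitor wortmannin or a water extract of 1 of 6 medicinal herbs. The set holds 33 genes of the 60675 in the table, chosen by their known roles and not by their values. A member was used where at least 3 libraries had 10 or more counts. By this rule 32 members were used, and all 32 passed the filter on low counts under which 16093 genes were tested. THRSP, a small protein linked to lipogenesis, reached 10 counts in 0 libraries, with 6 at most, and was not tested.

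Hepatocytes make fatty acids from citrate that SLC25A1 carries out of mitochondria and ACLY splits into acetyl-CoA. ACSS2 makes acetyl-CoA from acetate, ACACA and ACACB carboxylate it to malonyl-CoA, and FASN builds palmitate. Desaturases (SCD, FADS1, FADS2) add double bonds, elongases of the ELOVL family lengthen the chain, and ACSL enzymes activate fatty acids with coenzyme A. GPAM, AGPAT, lipin (LPIN) and DGAT enzymes then assemble triglyceride in that order. PNPLA2 hydrolyses triglyceride, and MTTP loads it onto the lipoproteins that the liver secretes. The transcription factor SREBP-1, encoded by SREBF1, drives many of these genes in liver, and the related SREBP-2 drives cholesterol synthesis.

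RNA was sequenced from 60 libraries in 20 groups of 3, after 24 h of treatment. Besides vehicle and 10 µM wortmannin, an inhibitor of phosphoinositide 3-kinase, the groups were water extracts of Paeoniae Radix, Angelicae Gigantis Radix, Panax Ginseng, Glycyrrhizae Radix, Atractylodis Rhizoma (Atractylodes) and Poria Cocos at 20, 100 or 500 µg/mL. Below, Glycyrrhizae Radix is licorice, Angelicae Gigantis Radix angelica and Paeoniae Radix peony, and Panax Ginseng and Poria Cocos are ginseng and Poria. Vehicle is 0.1% DMSO in the sample labels and 2% in the series' design text, and the labels name no DMSO for the other groups. There was 1 vehicle group, so all 19 comparisons with vehicle share its 3 libraries. The sample descriptions carry a leading number that pairs Poria with Atractylodes, licorice with ginseng and angelica with peony, and differs for vehicle and wortmannin. Its meaning is not given, and against vehicle it cannot be told apart from the treatment. The dose trend of an extract, the log2 ratio of its 500 to its 20 µg/mL level, uses libraries of 1 such number and none of vehicle. HepG2 is a single tumour line, and nothing in the labels says that the 3 libraries of a group were separate cultures, so the p-values measure only the spread between libraries. Values are CPM, the counts of a gene scaled to a common library total, with the SD over 3 libraries, and log2 changes carry their SE. A gene is said to rise or fall where its Benjamini-Hochberg adjusted p over the 16093 genes, from edgeR's quasi-likelihood test, was under 0.05.

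Total counts ran from 20.9 M to 33.4 M per library, and 3 counts, the limit that a count of 0 allows, corresponded to 0.0899 to 0.144 CPM. All 9 hepatocyte markers were expressed, with a summed level of 52300 to 74000 CPM that was lowest with licorice at 500 µg/mL and highest with wortmannin. PTPRC and KRT5, which mark blood cells and squamous epithelium, were at 0 in all 60 libraries. Of the 5 adipocyte markers, PLIN1 alone had a median above 1 CPM (3.27). The adipocyte sum was lowest with Poria at 500 µg/mL (1.23 CPM on average) and highest with vehicle (4.51 CPM). The fibroblast and stellate list, nearly all ACTA2, was also lowest with Poria at 500 µg/mL (33.9 CPM, against 65.3 to 67.3 CPM with vehicle). The part of these shifts in the members' values was not tested. In bulk RNA, fewer cells expressing a gene and less RNA per cell cannot be told apart. Reads from mitochondrially encoded genes made up 8.1% to 15.2% of the counts, and the highest share was in replicate 1 of Poria at 100 µg/mL.

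A window before a RefSeq start is shown for GPAM and FADS3, to set a member that fell beside one that rose. These genes had the largest opposed dose trends among members whose window held no annotated exon. GPAM fell and FADS3 rose with the dose of Poria. Each window covers the 250 bases before the RefSeq start on GRCh38.p14, read on the gene's own strand, at chr10:112183766-112184015 (minus strand) for GPAM and chr11:61891546-61891795 (minus strand) for FADS3. In GENCODE v29 GPAM spans 112149864 to 112215377 and FADS3 61873519 to 61892051. Both windows thus lie inside their genes, before an internal start and not the outermost one. Capitals mark matches to the motifs searched on both strands, the GC box GGGCGG and the CCAAT box.
GPAM: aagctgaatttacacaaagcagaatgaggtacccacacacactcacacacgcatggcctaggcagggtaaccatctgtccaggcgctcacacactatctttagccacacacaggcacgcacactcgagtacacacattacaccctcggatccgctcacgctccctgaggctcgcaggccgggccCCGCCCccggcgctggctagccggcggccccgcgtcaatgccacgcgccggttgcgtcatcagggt
FADS3: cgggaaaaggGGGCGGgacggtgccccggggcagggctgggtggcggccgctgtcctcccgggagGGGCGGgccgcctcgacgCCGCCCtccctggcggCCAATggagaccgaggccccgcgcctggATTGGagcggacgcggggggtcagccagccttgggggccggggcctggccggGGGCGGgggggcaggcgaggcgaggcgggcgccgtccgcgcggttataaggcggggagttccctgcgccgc
GPAM held 1 GC box, at 66 bases before the start. FADS3 held 4 GC boxes and 2 CCAAT boxes. A GC box occurs in 42.6% of the 35116 windows of this length in the table, and a CCAAT box in 32%. Also searched were the SREBP element TCACNCCAC and the E-box CACGTG, which neither window held. The 28 members with a window had 48 windows between them. The SREBP element occurs in 0.883% of all windows and in 3 of these 48 (6.25%), of MID1IP1, ACSL1 and PNPLA2. The E-box occurs in 6.34% of all windows and in 2 of the 48 (4.17%), of ELOVL5 and LPIN2. A match describes the letters of the window only.

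Per kilobase of exon sequence, SCD was the most abundant member with vehicle (585 ± 15.5 CPM per kb), followed by FASN (225 ± 3.66) and ACSL4 (146 ± 7.61). ACLY followed at 112 ± 0.969 CPM per kb. The rate-limiting carboxylases were lower, with ACACA at 15.3 ± 0.287 and ACACB at 2.36 ± 0.0849 CPM per kb. Among the other desaturases, FADS2 (30.3 ± 0.862 CPM per kb) and FADS1 (28.7 ± 0.165) were close and FADS3 was far lower (1.5 ± 0.118). AGPAT2 was the least abundant member (1.49 ± 0.0524 CPM per kb), next to FADS3 and within its spread. DGAT1 (18.5 ± 0.417) exceeded DGAT2 (8.24 ± 0.266) on this scale. The members together made up 1.03% of all counts with vehicle, 1.13% with wortmannin and 0.866% with Poria at 100 µg/mL. At 500 µg/mL they made up 0.908% with angelica, 0.911% with Poria, 0.927% with licorice, 0.942% with ginseng and with peony and 1.01% with Atractylodes.

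**Figure D1:**
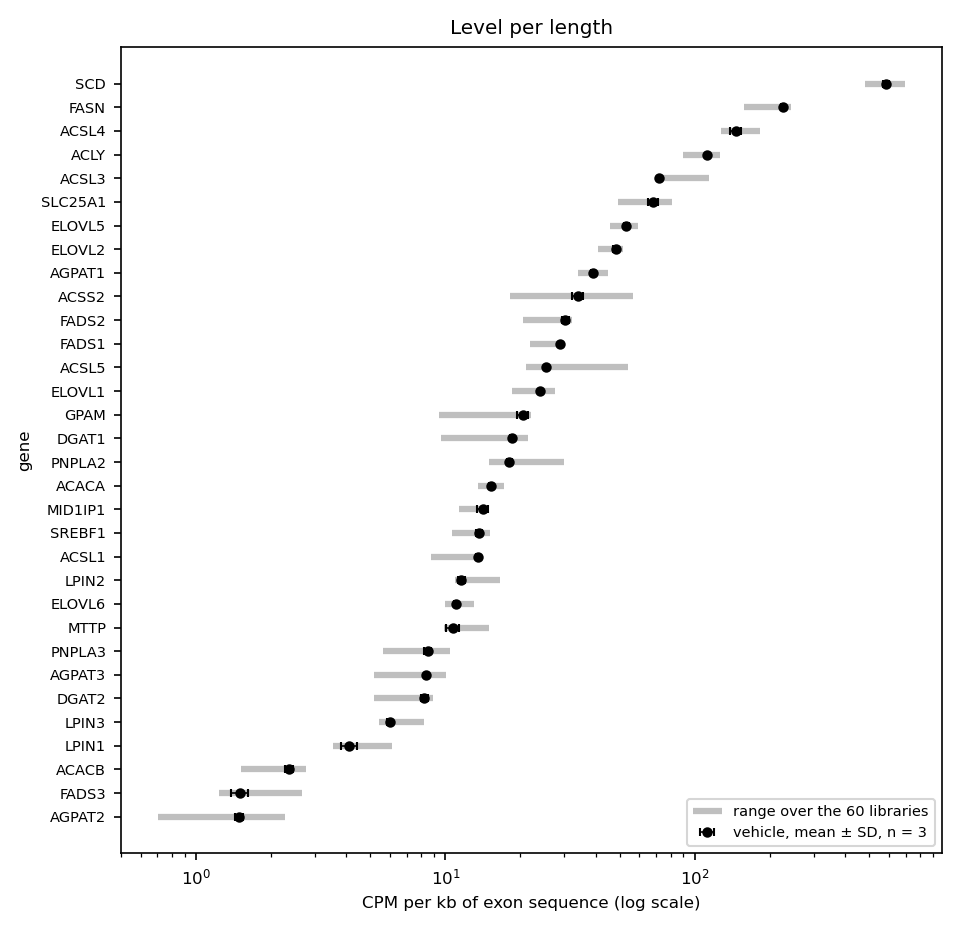
Level of each of the 32 members per kilobase of exon sequence (x axis, CPM per kb, log scale; y axis, genes in order of their vehicle level). Points are vehicle means with the SD (n = 3) and grey bars the range over all 60 libraries; SCD is highest at 585 CPM per kb, and the bars are widest for genes such as ACSS2, ACSL5 and AGPAT2.

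Against vehicle, most members were called with wortmannin and with Poria, licorice or peony at 500 µg/mL, and fewest with Atractylodes. With Atractylodes at 500 µg/mL, 13 of the 32 had an unadjusted p under 0.05 in edgeR's test (4 higher and 9 lower). With wortmannin 17 members rose and 9 fell, where 46.3% of all genes were called (22.4% higher and 24% lower). Poria at 500 µg/mL had 7 rises and 17 falls, against 47.6% of all genes called (23.9% higher, 23.7% lower). Licorice had 4 rises and 14 falls (32.4% of all genes called, 16.7% higher and 15.7% lower). Peony had 5 and 15 (19.7%, with 9.68% higher and 9.98% lower) and angelica 2 and 14 (18.9%, with 9.51% and 9.41%). Ginseng had 1 and 12 (10.2%, with 4.66% and 5.58%) and Atractylodes 0 and 1 (0.889%, with 0.559% and 0.329%). Falls outnumbered rises among members with these extracts, while over all genes the directions were close to even except with Atractylodes, where more genes were higher. Many members are abundant, and abundant genes were called more often. Of the 9327 genes averaging 10 CPM or more, 59.3% were called with wortmannin, 58.3% with Poria, 43% with licorice and 27.8% with peony at 500 µg/mL.

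At 100 µg/mL 5 members rose and 17 fell with Poria, where 15.1% of all genes were higher and 15.3% lower (30.5% in all). Licorice had 1 rise and 12 falls (16.4% of all genes called, 8.76% higher and 7.68% lower), and angelica 3 and 8 (14.6%, with 6.97% and 7.65%). Ginseng had 2 and 5 (8.53%, with 4.13% and 4.4%), peony 2 and 4 (10%, with 4.78% and 5.26%) and Atractylodes 2 and 0 (1.35%, with 0.87% and 0.478%). The members' share was thus well above that of all genes with Poria and licorice and nearer to it with peony. At 20 µg/mL angelica had 5 rises and 7 falls (24.3% of all genes called, 12.1% higher and 12.2% lower), and licorice 3 and 5 (11.2%, with 5.89% and 5.28%). Ginseng had 2 and 5 (13.9%, with 6.72% and 7.15%) and peony 1 and 4 (15.8%, with 7.57% and 8.19%), the latter a share of members near that of all genes. Poria had 1 and 4 (3.8%, with 2.09% and 1.71%) and Atractylodes 0 and 1 (1.08%, with 0.82% and 0.261%). Of the genes averaging 10 CPM or more, 34.5% were called with angelica, 20.1% with ginseng and 22.5% with peony at 20 µg/mL. The members' share was near that of these abundant genes with angelica and ginseng, and below it with peony. Without replicate 1 of Poria at 100 µg/mL, that group had 6 rises and 16 falls.

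**Figure D2:**
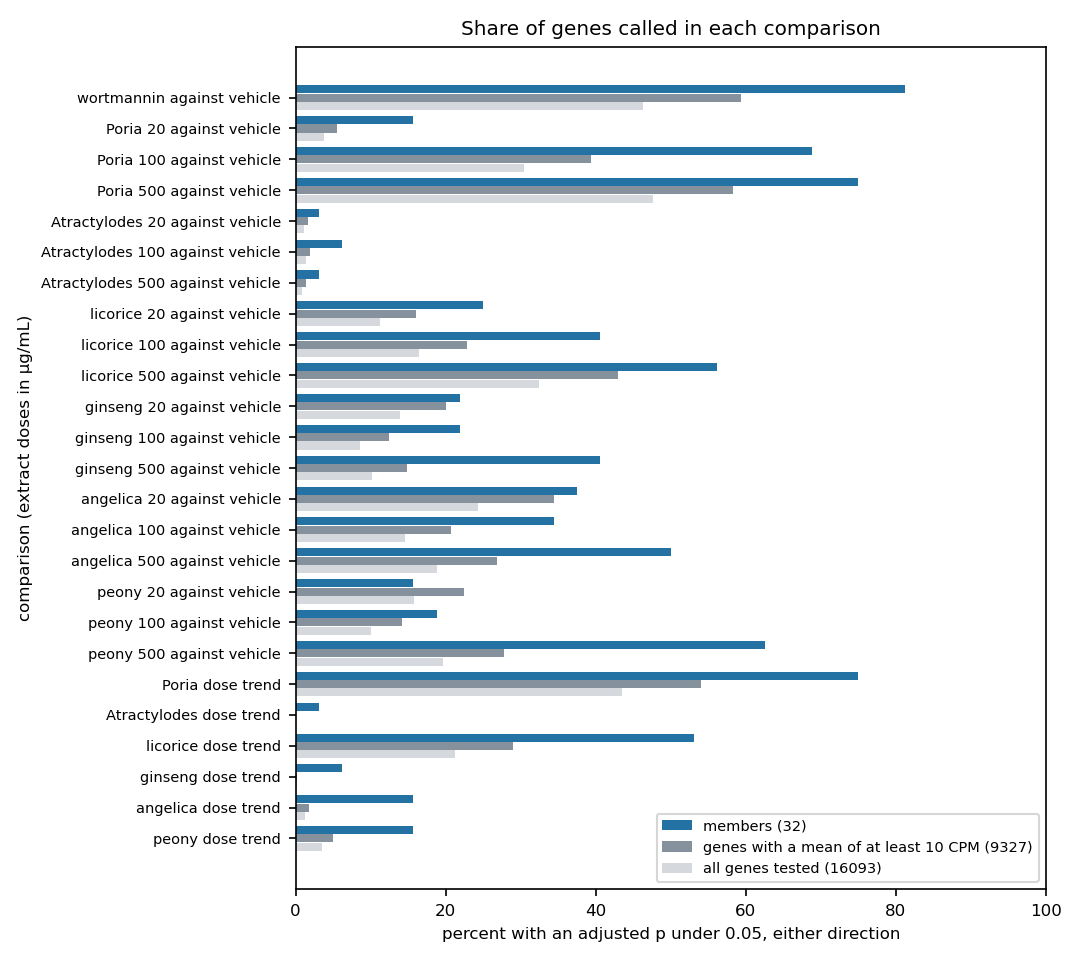
Share of genes with an adjusted p under 0.05 in either direction (x axis, percent) in each comparison (y axis), for the 32 members, the 9327 genes averaging 10 CPM or more and all 16093 genes tested. The members' bar is the longest of the 3 in most comparisons, and at 20 µg/mL of peony it is shorter than that of the abundant genes.

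Over the doses of Poria, 6 members rose and 18 fell, where 43.5% of all genes were called (22.3% higher and 21.2% lower). The falls ran through chain synthesis, desaturation and triglyceride assembly, and the rises were in acyl-CoA synthetases, lipins, FADS3 and ELOVL1. GPAM, the mitochondrial acyltransferase that starts glycerolipid synthesis, stood at 203, 205 and 206 CPM at 20 µg/mL, 130, 133 and 141 CPM at 100 µg/mL and 108, 92.7 and 94.6 CPM at 500 µg/mL. The 3 doses did not overlap, and only the lowest dose lay at the level of vehicle (209, 188 and 203 CPM). The trend was -1.05 ± 0.043 (adjusted p = 6.09e-26). DGAT1, which adds the last acyl chain, was at 70.5, 72.3 and 70.3 CPM at 20 µg/mL and 40.5, 39.7 and 42.6 CPM at 500 µg/mL. Its trend was -0.80 ± 0.057 (adjusted p = 9.96e-17). DGAT2, the unrelated enzyme of the same step, fell from 63.1, 58.3 and 57.8 CPM to 43.4, 41.1 and 42.1 CPM (-0.50 ± 0.046). AGPAT3 fell by 0.44 on the log2 scale, AGPAT1 by 0.15, and AGPAT2 was not called (0.07 ± 0.158).

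ACSL5, an acyl-CoA synthetase of liver and intestine, rose most of all members with Poria. It was at 110, 114 and 117 CPM at 20 µg/mL, 138, 144 and 139 CPM at 100 µg/mL and 215, 226 and 230 CPM at 500 µg/mL, with vehicle at 108, 107 and 107 CPM. The doses did not overlap, and the median over the 54 extract libraries was 114 CPM. The trend was 0.98 ± 0.037 (adjusted p = 2.91e-27). ACSL3, found on lipid droplets, rose as well (0.44 ± 0.061), whereas ACSL1, the major form of liver, fell (-0.47 ± 0.04) and ACSL4, which prefers arachidonate, was not called (-0.06 ± 0.054). FADS3, a desaturase-like gene of the FADS cluster, went from 8.71, 8.93 and 7.77 CPM to 16.6, 16.8 and 15.8 CPM (0.95 ± 0.092, adjusted p = 2.17e-12). FADS1 (-0.37 ± 0.041) and FADS2 (-0.47 ± 0.037), its neighbours on chromosome 11, fell. Exons of FADS1 and FADS2 share 490 bases on opposite strands in GENCODE v29, 4.79% and 4.44% of their exon sequence. The largest overlaps on the opposite strand were those of AGPAT1 with PPT2-EGFL8 (29.9%), LPIN3 with EMILIN3 (13.5%) and PNPLA2 with AP006621.1 (10.4%). Those of SREBF1 with RAI1 (6.92%), DGAT2 with AP003031.1 (5.35%) and ACSL5 with AL157786.1 (5.29%) also exceeded that of FADS1. The strand setting of the counting is not given in the sources used here. LPIN1 and LPIN2, phosphatidate phosphatases that also act as coregulators in the nucleus, rose by 0.38 ± 0.053 and 0.34 ± 0.056, and LPIN3 was not called (0.02 ± 0.065). LPIN1 was at 49.2, 50.8 and 48.1 CPM at the lowest dose and at 68, 65.4 and 59.6 CPM at the highest.

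Chain synthesis had no uniform change with Poria. ACSS2 fell by 0.62, SLC25A1 by 0.35, ACACB by 0.30 and ACACA by 0.15 on the log2 scale over the doses. ACLY (0.02 ± 0.036) and FASN (0.13 ± 0.065) were not called, nor was SREBF1 (0.15 ± 0.066, adjusted p = 0.054). SREBF1 was at 93.4, 96.7 and 85.5 CPM at 20 µg/mL and at 108, 102 and 97.1 CPM at 500 µg/mL, and these did not overlap. Among elongases, ELOVL2, ELOVL5 and ELOVL6, which act on long polyunsaturated or on saturated chains, fell by 0.24, 0.12 and 0.15, and ELOVL1, which makes very long saturated chains, rose by 0.18. SCD, the desaturase that makes oleate, fell by 0.13 on the log2 scale, from 3140, 3200 and 2920 CPM to 2920, 2790 and 2780 CPM, a call that was lost without replicate 2 of Poria at 20 µg/mL (adjusted p = 0.0647). PNPLA3, a triglyceride hydrolase and acyltransferase of liver, fell by 0.50, and MTTP by 0.14. The call for MTTP was lost without replicate 1 of Poria at 500 (adjusted p = 0.0724) or at 20 µg/mL (0.0501). ACSS2, SCD and ELOVL5 had lower means at 100 µg/mL of Poria (102, 2640 and 178 CPM) than at 500 µg/mL (110, 2830 and 183 CPM), a difference that was not tested.

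**Figure D3:**
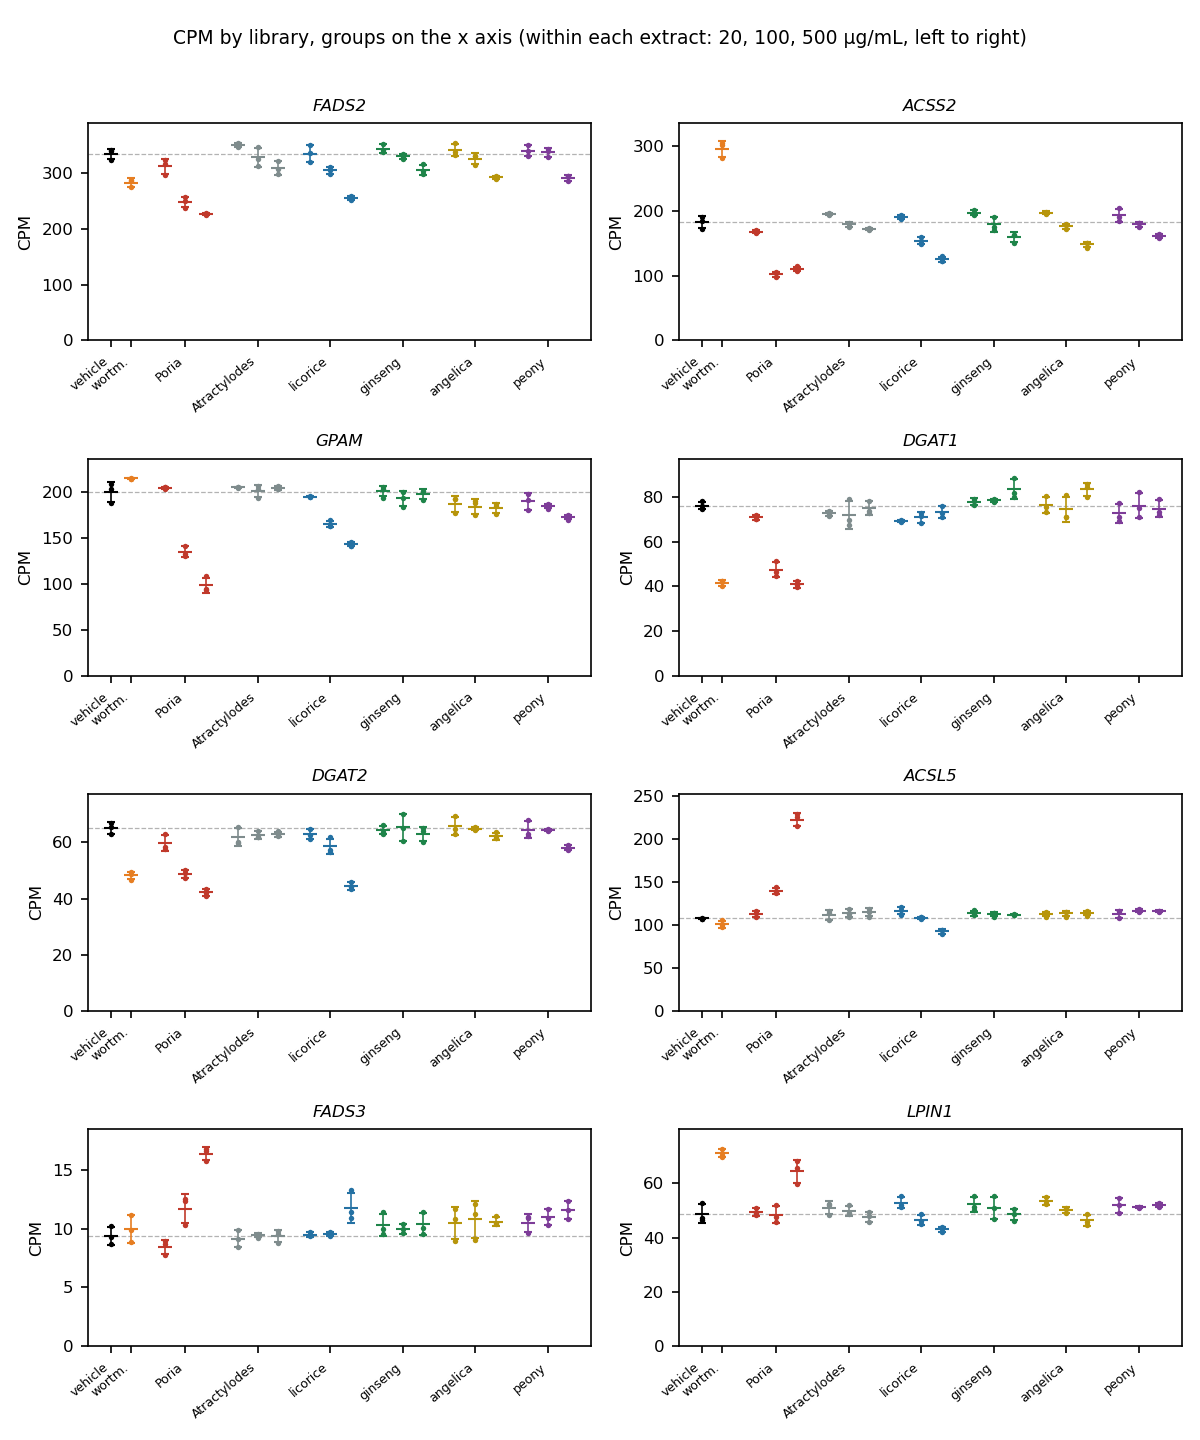
Level of 8 members by library (y axis, CPM from 0; x axis, groups, with each extract's 20, 100 and 500 µg/mL from left to right); points are libraries, horizontal marks the mean, bars the SD (n = 3) and the dashed line the vehicle mean. FADS2 and ACSS2 lie lower at 500 than at 20 µg/mL in all 6 extracts, GPAM falls to a mean of 98.4 CPM with Poria and 143 CPM with licorice, and ACSL5 climbs to 223 CPM with Poria.

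FADS2 was the one member that fell with the dose of all 6 extracts, whose trends share no library. FADS2 is the delta-6 desaturase that begins the synthesis of long polyunsaturated fatty acids. Its trend was -0.47 with Poria, -0.39 with licorice, -0.23 with angelica, -0.23 with peony, -0.18 with Atractylodes and -0.17 with ginseng, each with an SE of 0.037. Levels at 20 µg/mL were between 297 and 354 CPM in all 18 libraries. At 500 µg/mL they were 228, 226 and 225 CPM with Poria, 255, 252 and 259 with licorice, 290, 294 and 291 with angelica, and 295, 285 and 294 with peony. With ginseng they were 298, 316 and 303 CPM and with Atractylodes 322, 308 and 298 CPM. Within each extract the lowest and highest doses did not overlap. Of 16093 genes, 1 (FADS2) was called lower in all 6 trends, and 10 in at least 5 of them. The calls with Atractylodes and ginseng are fragile. The Atractylodes call (adjusted p = 0.0361) was lost without replicate 1, 2 or 3 at 20 µg/mL (0.112, 0.287 and 0.178) and without replicate 2 or 3 at 500 µg/mL (0.284 and 0.684). The ginseng call (0.0329) was lost without replicate 1, 2 or 3 at 20 µg/mL (0.0612, 0.143 and 0.252) and without replicate 1 or 3 at 500 µg/mL (0.439 and 0.238). The log2 value stayed between -0.15 and -0.18 in these fits. In edgeR fits of only the groups compared, the calls with Atractylodes, ginseng and angelica were lost (adjusted p = 0.184, 0.292 and 0.0526). Called or not, 9 of the 32 members had a trend below 0 in all 6 extracts, as had 4.29% of all genes.

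ACSS2, the cytosolic and nuclear acetyl-CoA synthetase, fell in 5 of the 6 trends. At 500 against 20 µg/mL it stood at 110 ± 3.55 and 168 ± 2.25 CPM with Poria and at 125 ± 4.28 and 191 ± 2.99 CPM with licorice. With angelica it was 148 ± 4.43 against 197 ± 2.39 CPM, with ginseng 159 ± 7.76 against 197 ± 4.08, and with peony 161 ± 2.68 against 193 ± 10.1 CPM. The trends were -0.62, -0.61, -0.41, -0.32 and -0.26 in that order, with SEs of 0.04 to 0.041 and adjusted p from 7.9e-18 to 1.3e-05. Atractylodes had 172 ± 1.58 against 195 ± 2.08 CPM (-0.18 ± 0.04, adjusted p = 0.105). The libraries at 20 and 500 µg/mL did not overlap in any of the 6 extracts. The other genes called lower in at least 5 trends were HMGCS1 and LSS, enzymes of cholesterol synthesis, MT1F, MT1X, ID2, TGFBI, DGKK and PAQR8.

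Licorice shared the fall in triglyceride assembly only in part. Over its doses 4 members rose and 13 fell (21.3% of all genes called, 11% higher and 10.3% lower). GPAM was at 195, 196 and 195 CPM at 20 µg/mL and at 141, 141 and 145 CPM at 500 µg/mL (-0.45 ± 0.042, adjusted p = 3.42e-12). DGAT2 went from 61.1, 64.7 and 62.8 CPM to 43.4, 46 and 44.1 CPM (-0.50 ± 0.045). DGAT1 was not called (0.08 ± 0.054), with 69.4 ± 0.293 CPM at the lowest dose and 73.4 ± 2.56 CPM at the highest. ACSL4 (-0.37 ± 0.054), ACSL5 (-0.33 ± 0.038), LPIN1 (-0.30 ± 0.053), LPIN2 (-0.17 ± 0.056) and ACSL1 (-0.17 ± 0.039) fell. PNPLA3 fell by 0.44, ACLY by 0.22, SCD by 0.20 and ELOVL6 by 0.13. AGPAT2, the main AGPAT of adipose tissue and here the least abundant member, rose from 2.58 ± 0.302 to 3.82 ± 0.259 CPM (0.57 ± 0.138, adjusted p = 0.00175). ELOVL1 rose by 0.19 and FADS3 by 0.32, the latter lost without replicate 1 of licorice at 500 µg/mL (0.23, adjusted p = 0.127). MID1IP1, which activates acetyl-CoA carboxylase, rose by 0.13. That call was lost without replicate 1 or 2 at 500 µg/mL (0.189 and 0.107) or at 20 µg/mL (0.0935 and 0.155). The call for LPIN2 was lost without replicate 1 or 2 at 500 µg/mL (0.0711 and 0.161) or replicate 1 at 20 µg/mL (0.0995), and that for ELOVL6 without replicate 2 or 3 at 500 µg/mL (0.0512 and 0.0602).

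Whether the 6 dose trends are equal was asked in 1 joint test. It called 25 of the 32 members, where 35.1% of all genes were called. The trend of Poria differed from the mean of the other 5 trends for 25 members, 10 higher and 15 lower (37.3% of all genes called, 19.5% higher and 17.8% lower). ACSL5 differed most (1.03 ± 0.041), followed by GPAM (-0.92 ± 0.047), DGAT1 (-0.87 ± 0.062) and FADS3 (0.84 ± 0.101). Licorice and ginseng, which share the leading number in the descriptions, differed for 10 members, 2 higher and 8 lower with licorice (8.79% of all genes, with 4.41% and 4.38%). DGAT2 was among them (-0.47 ± 0.063), as were GPAM (-0.43 ± 0.06) and ACSL5 (-0.31 ± 0.053). Poria and Atractylodes, which share theirs, differed for 20 members, 8 higher and 12 lower with Poria (29.5%, with 15.7% and 13.8%), with GPAM at -1.05 ± 0.06 and ACSL5 at 0.95 ± 0.053. Angelica and peony differed for 0 members in edgeR's test (0.926% of all genes, 0.522% higher and 0.404% lower) and in DESeq2, and 3 had an unadjusted p under 0.05.

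Against vehicle at 500 µg/mL, 10.2% of all genes were called with ginseng, 18.9% with angelica and 19.7% with peony. In chain synthesis 4 of 6 members fell with ginseng and with angelica and 5 of 6 with peony, and in desaturation 3 of 4 fell with each. In assembly 1, 2 and 3 of 9 members fell and 1, 1 and 2 rose, in the order ginseng, angelica and peony. No test compared the steps. Some of these calls were lost without 1 library, among them FADS2 with ginseng (adjusted p up to 0.0973, without replicate 3 of vehicle) and GPAM with angelica (up to 0.149, without replicate 1 of vehicle). With peony they were ACACA (up to 0.11), ACACB (0.072), both without replicate 3 of vehicle, SCD (up to 0.052) and FADS3 (up to 0.0868), both without replicate 2 of peony, and LPIN2 (up to 0.134) and AGPAT3 (0.0657), both without replicate 1 of peony. FASN, at 2120, 2140 and 2070 CPM with vehicle, was at 1790, 1760 and 1670 CPM with ginseng, 1620, 1780 and 1610 CPM with angelica, and 1660, 1650 and 1730 CPM with peony. None of these libraries reached the level of vehicle, and the log2 changes were -0.28, -0.34 and -0.33 with an SE of 0.065. LPIN3 rose by 0.21 ± 0.063, 0.17 ± 0.063 and 0.26 ± 0.062. The call with ginseng was lost without replicate 1 or 3 of vehicle or replicate 2 or 3 of ginseng (adjusted p up to 0.0857), and that with angelica without any vehicle library or without replicate 1 or 2 of angelica (up to 0.231). MTTP rose with angelica (0.27 ± 0.05) and peony (0.22 ± 0.05). Few of these genes had a dose trend. With ginseng 0 members rose and 2 fell over the doses (0.149% of all genes called, 0.0249% higher and 0.124% lower), with angelica 0 and 5 (1.22%, with 0.534% and 0.684%) and with peony 0 and 5 (3.49%, with 1.78% and 1.7%). Those of angelica were ACSS2, FADS2, FADS1 (-0.18 ± 0.041), SCD (-0.15 ± 0.039) and LPIN1 (-0.20 ± 0.053). Those of peony were ACSS2, FADS2, ELOVL6 (-0.17 ± 0.038), FADS1 (-0.14 ± 0.041) and DGAT2 (-0.15 ± 0.044). Apart from ACSS2 and FADS2, each of these trends lost its call without at least 1 library. For angelica the adjusted p rose to 0.0962 for FADS1 (without replicate 1 at 500 µg/mL), 0.274 for SCD and 0.19 for LPIN1 (both without replicate 2 at 500 µg/mL). For peony it rose to 0.228 for FADS1 (without replicate 1 at 500 µg/mL), 0.349 for DGAT2 and 0.0573 for ELOVL6 (without replicate 2 and 3 at 20 µg/mL, in that order). Atractylodes had 0 rises and 1 fall over the doses, FADS2 (0.0497% of all genes called, 0.0124% higher and 0.0373% lower). Its fall against vehicle was MID1IP1, from 52, 57 and 51.8 CPM to 45.9, 44.4 and 45.7 CPM (-0.24 ± 0.047). It was lost without replicate 2 of vehicle (adjusted p = 0.102) or of Atractylodes at 500 µg/mL (0.0759).

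With wortmannin the 3 members of lipolysis and export rose, where 46.3% of all genes were called (22.4% higher and 24% lower). Of genes averaging 10 CPM or more, 59.3% were called. In triglyceride assembly 6 of 9 members rose and 3 fell, the falls being AGPAT2, DGAT1 and DGAT2. The rise of GPAM (0.10) was just past the threshold. PNPLA2, the adipose triglyceride lipase, was at 115, 97.3 and 111 CPM against 69.7, 67.4 and 70.5 CPM with vehicle (0.64 ± 0.067, adjusted p = 2.2e-11). MTTP rose by 0.40 ± 0.05 and PNPLA3 by 0.23 ± 0.054. ACSS2 rose from 185, 172 and 191 CPM to 302, 282 and 305 CPM (0.70 ± 0.04, adjusted p = 1.88e-20). That is opposite in sign to its change with Poria at 500 µg/mL (-0.74 ± 0.041), a comparison with the same vehicle libraries. LPIN1 (0.54 ± 0.052), LPIN3 (0.41 ± 0.062), LPIN2 (0.27 ± 0.056), AGPAT3 (0.26 ± 0.047) and AGPAT1 (0.19 ± 0.044) rose. DGAT1 fell to 42.6, 40.2 and 42.4 CPM from 78.2, 74.7 and 76.1 CPM (-0.87 ± 0.056, adjusted p = 1.28e-18), and DGAT2 to 48.8, 46.8 and 49.4 CPM from 65.6, 67 and 62.9 CPM (-0.43 ± 0.044). The drop in DGAT1 was close in size to that with Poria at 500 µg/mL (-0.90 ± 0.057). DGAT1 shares 444 exon bases, 10.7% of its exon sequence, with AC233992.1 on the same strand. AGPAT2 fell from 2.79, 2.64 and 2.62 CPM to 1.33, 1.28 and 1.27 CPM (-1.05 ± 0.16).

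In desaturation SCD rose with wortmannin (0.24 ± 0.039) and FADS1 (-0.33 ± 0.041) and FADS2 (-0.24 ± 0.037) fell. SCD was at 3720, 3660 and 3720 CPM against 3150, 3050 and 3210 CPM with vehicle. ELOVL6 (0.19 ± 0.038) and ELOVL5 (0.12 ± 0.034) rose, and ELOVL1 fell (-0.29 ± 0.047). ACSL4 and ACSL3 rose by 0.28 ± 0.054 and 0.26 ± 0.061, and ACSL1 fell by 0.34. FASN (0.02 ± 0.065) and SREBF1 (0.03 ± 0.065) were not called. FASN was at 2260, 1970 and 2180 CPM, around the vehicle libraries. GPAM (0.10 ± 0.042), ACSL5 (-0.09 ± 0.038) and ACACA (-0.12 ± 0.045) were just past the threshold. The call for ACACA was lost without replicate 3 of vehicle (adjusted p = 0.096) or replicate 1 or 2 of wortmannin (0.129 and 0.06). Those for GPAM and ACSL5 were each lost without any of 5 of the 6 libraries, with adjusted p up to 0.313 and 0.219.

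**Figure D4:**
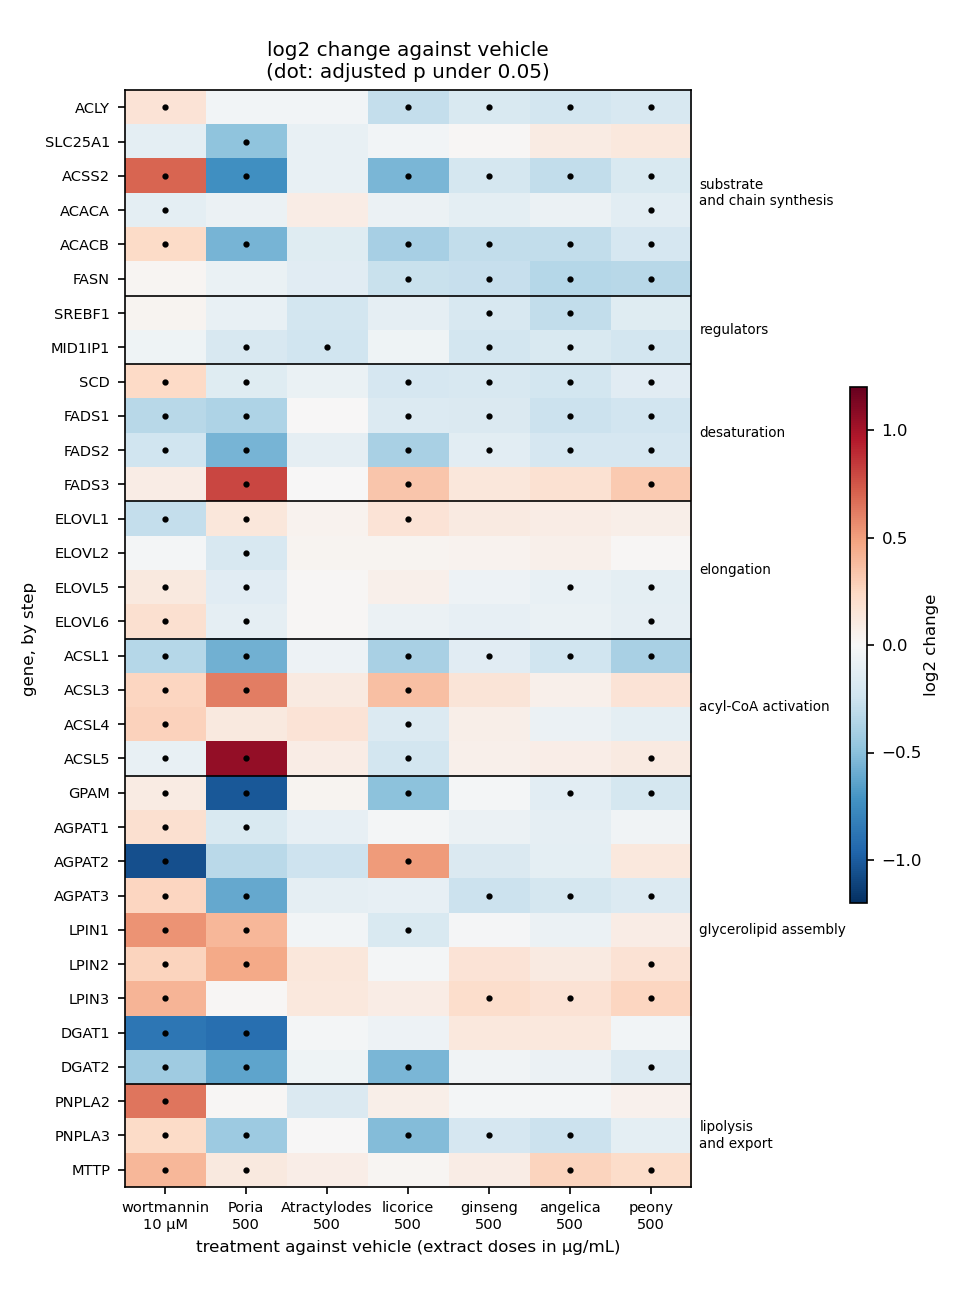
Log2 change of each member (y axis, grouped by step) against vehicle with 10 µM wortmannin and each extract at 500 µg/mL (x axis); red is higher, blue is lower, and a dot marks an adjusted p under 0.05. Both DGAT rows are blue with wortmannin and with Poria, ACSS2 is called higher with wortmannin and lower with 5 extracts, and the Atractylodes column holds 1 dot. All columns share the 3 vehicle libraries.

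Some members set vehicle apart from nearly all extract libraries. They are named for that difference, and the share of all genes that differ in this way was not counted. ACACB, the mitochondrial carboxylase that makes the malonyl-CoA restraining fatty acid oxidation, was at 33, 34.2 and 35.5 CPM with vehicle. The 54 extract libraries had a lowest of 22, a median of 27.8 and a highest of 33 CPM, while wortmannin had 39.9, 40 and 40.2 CPM. At 20 µg/mL ACACB was already lower with Poria (-0.26), licorice (-0.33), ginseng (-0.33), angelica (-0.42) and peony (-0.32). In that order 1.71%, 5.28%, 7.15%, 12.2% and 8.19% of all genes were called lower at this dose. ACSL1 was at 85.1, 86.5 and 83.3 CPM with vehicle and between 55.2 and 84.1 CPM with extracts (median 72.4). FASN was between 1470 and 2120 CPM (median 1820), against 2070 to 2140 CPM with vehicle. MID1IP1 was between 43 and 53.6 CPM (median 47.5), against 51.8 to 57 CPM. ACSL3 lay the other way, with 516, 518 and 523 CPM in vehicle and 524 to 827 CPM (median 611) in the extract libraries. LPIN2 had a median of 86 CPM with extracts and 75.8 to 80.7 CPM with vehicle. Each of these values rests on the same 3 vehicle libraries, and DMSO and the leading number of the descriptions also differ or may differ there, so these cannot be told apart from the treatment.

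**Figure D5:**
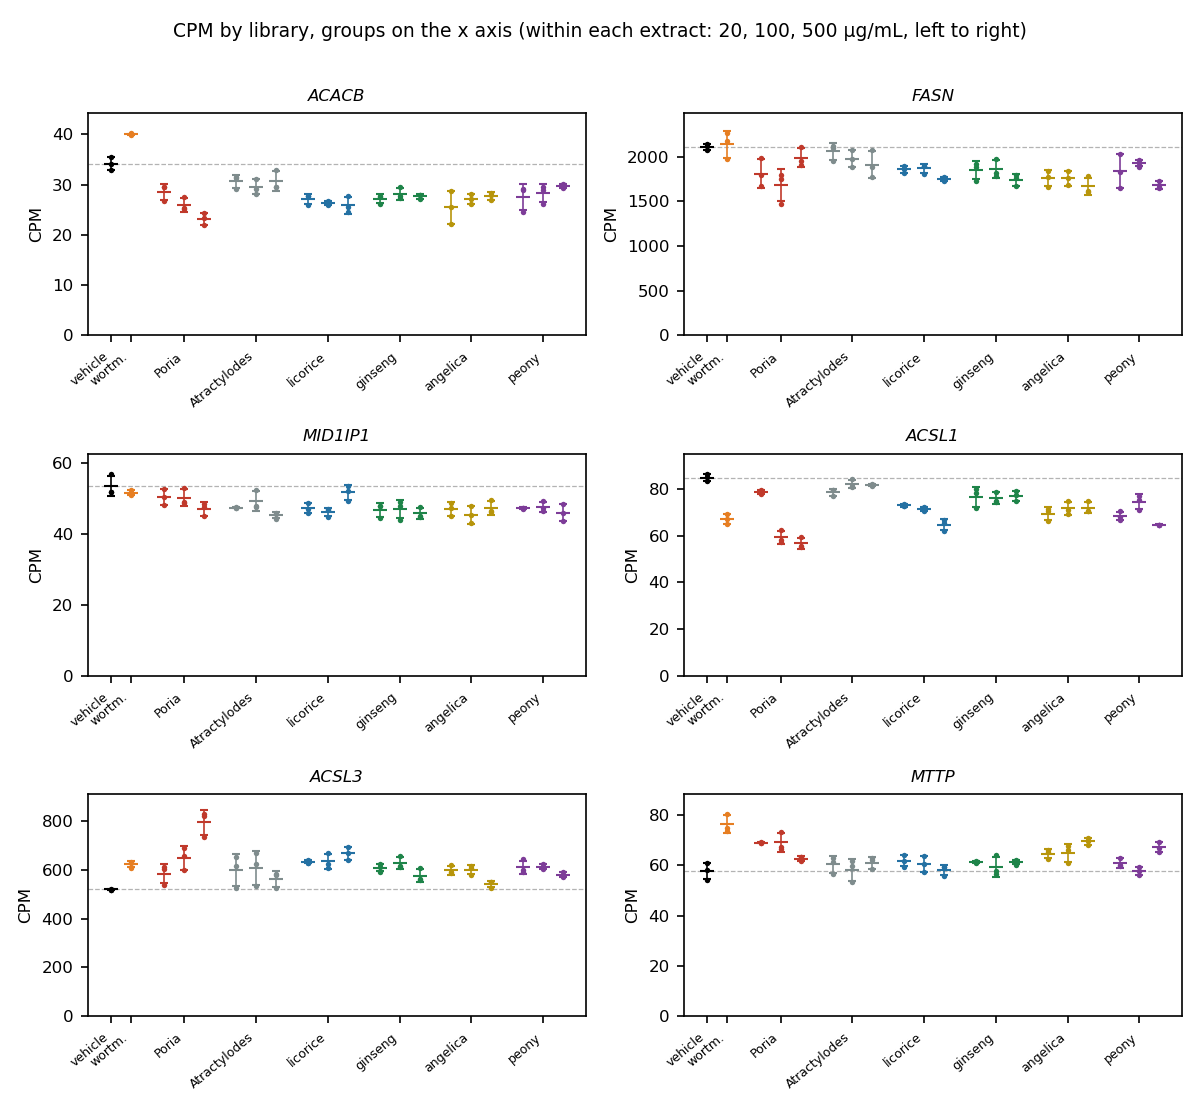
Level of 6 members by library (y axis, CPM from 0; x axis, groups, with each extract's 20, 100 and 500 µg/mL from left to right); points are libraries, horizontal marks the mean, bars the SD (n = 3) and the dashed line the vehicle mean. ACACB, FASN, MID1IP1 and ACSL1 lie below the line in nearly all extract groups, with ACACB at a median of 27.8 CPM, and ACSL3 lies above it (median 611 CPM), while MTTP lies near or above it.

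Other genes of the pathway were read from lists chosen by known role. GPAT3, a glycerol-3-phosphate acyltransferase of the endoplasmic reticulum that acts at the same step as GPAM, rose over the doses of Poria and licorice, where GPAM fell. It went with Poria from 10.5 ± 0.311 CPM at 20 µg/mL to 40.6 ± 0.716 CPM at 500 µg/mL (trend 1.94 ± 0.057, adjusted p = 8.54e-32) and with licorice from 10.4 ± 0.436 to 20.5 ± 1.24 CPM (0.98 ± 0.06). Vehicle had 9.21 ± 0.113 CPM and wortmannin 14.4 ± 0.326 CPM (0.65 ± 0.063), a rise where GPAM was also called higher (0.10). Of 23 tested genes among other fatty acid and glycerolipid enzymes, 5 rose and 8 fell over the doses of Poria (43.5% of all genes called, and 54% of those averaging 10 CPM or more). Over those of licorice 3 rose and 2 fell, a share near that of all genes (21.3%). ACSL6 fell with Poria (-0.92 ± 0.09). The median trend of that list was -0.07 with Poria, against -0.01 over all genes.

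Of 14 tested genes of lipid droplets, lipolysis and secretion, 7 rose and 4 fell over the doses of Poria, where 22.3% of all genes were higher and 21.2% lower. PLIN2, which coats lipid droplets, was at 211 ± 4.83 CPM with vehicle, 310 ± 59.1 CPM with Poria at 20 µg/mL and 673 ± 79.4 CPM at 500 µg/mL (trend 1.12 ± 0.113, adjusted p = 7.14e-12). CIDEC, a droplet fusion protein, rose from 3.8 ± 0.548 to 9.31 ± 0.612 CPM (adjusted p = 8.26e-14) and PLIN3 by 0.70 ± 0.044. With licorice PLIN2 fell over the doses (-0.34 ± 0.112), from 347 ± 11.5 to 275 ± 5.3 CPM, both above vehicle. With wortmannin 8 of the 14 rose and 2 fell (22.4% of all genes higher, 24% lower), and PLIN2 was at 263 ± 12.5 CPM (0.32 ± 0.113).

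Genes of cholesterol synthesis were called lower over the doses of 5 extracts. Of 14 tested, 13 fell with licorice (10.3% of all genes lower), 9 with Poria (21.2%), 9 with angelica (0.684%), 7 with peony (1.7%) and 2 with ginseng (0.124%). LSS and HMGCS1 were each called lower with all 5 of these extracts, and only some of their values are given here. LSS fell by 0.61, 0.55, 0.25 and 0.16 on the log2 scale with Poria, licorice, angelica and ginseng. HMGCS1 fell by 0.64 with licorice and by 0.24 with peony. With Atractylodes 0 of 14 were called, and the list's median trend was -0.10. Of 10 tested genes of SREBP and ChREBP control, MLXIPL, which encodes the carbohydrate-responsive factor ChREBP, fell with Poria (-0.66 ± 0.06) and INSIG2 rose (0.59 ± 0.095). SREBF2, which encodes SREBP-2, fell by 0.11 ± 0.046 with Poria and by 0.16 ± 0.045 with licorice. Of 9 tested genes of fatty acid oxidation, 8 rose and 0 fell with wortmannin (22.4% of all genes higher, 24% lower), among them CPT1A, which admits fatty acids to mitochondria, at 123 ± 3.4 against 51 ± 3.05 CPM (1.27 ± 0.074). With Poria 2 of the 9 rose and 5 fell over the doses (43.5% of all genes called). Of 6 tested LXR targets outside the set, 0 rose and 2 fell over the doses of Poria (43.5% of all genes called), and ABCA1 was not called (0.08 ± 0.075).

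The genes whose 20 group means were most like those of 3 members, chosen after their values were seen, were found by Pearson correlation of log2 CPM among 10597 genes. They are given as a description, since groups of 1 extract are doses of the same preparation. For ACSS2 they were LSS (0.98), PLPP3 (0.98), PIP4P1 (0.97), C5 (0.95) and FAM117A (0.95). For FADS2 they included SQLE (0.95), IGDCC3 (0.94), MVK (0.93) and HSD11B2 (0.93), of which SQLE and MVK are enzymes of cholesterol synthesis. For GPAM they were SMO (0.98), C1orf115 (0.97), ACSM2B (0.97), KNG1 (0.96) and ACSM2A (0.95). The last gene and ACSM2B are close paralogs, whose shared reads the counting may divide.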

How the data were processed

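Paired-end reads of 100 bases from 60 libraries were processed by the authors with FastQC 0.11.9, Trim Galore 0.6.5, STAR 2.7.3a and RSEM 1.3.3 on hg38 (GRCh38), per the submitters' processing notes. The annotation release and the strand setting of the counting are not given in the sources used here. The authors deposited expected counts per gene from RSEM, of which 76.1% of the values above 0 were whole, and these were rounded to whole numbers. The table has 270 columns of libraries; 60 were matched to this series by name and 210 were not used. Symbols were matched for 57055 of 60675 gene IDs.

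Groups came from the sample labels. Genes were kept by edgeR's filter (minimum count 10, minimum total 15), scaled by TMM (factors 0.926 to 1.03) and tested with edgeR 4.0.16's quasi-likelihood test in R 4.3.3, with all 60 libraries in 1 fit and 1 mean per group (40 residual degrees of freedom). P-values were adjusted by Benjamini and Hochberg within each comparison over all 16093 genes. CPM uses the TMM library sizes, and the SE is the log2 change divided by the square root of F. The procedure was tested on simulated data. Total counts of 20.9 to 33.4 M (median 26.1 M) set the counting error, which floors cover alone. Alternatives were DESeq2 1.42.0, its size factors, other filters, a regression on log dose, a fit restricted to the libraries compared, a block on the replicate number and leaving out each library. The comparison with genes of at least 10 CPM was added after seeing the data. All members could be named, and from each related list at most 4 called genes per comparison by size of change, plus a few set regulators. The members and lists were chosen with earlier results of these data known. INSIG1 was not analysed here. Results for a few other genes of the related lists and of the likeness ranking are not reported here.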

Additional observations from a re-analysis of the deposited data

Results flagged for a closer look

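These results were marked because 2 dose trends, or the Poria trend and the mean of the other 5, differed in a test of the difference itself (edgeR's quasi-likelihood test, adjusted p under 0.05), together with the joint test of equal trends. Values are differences of log2 trends from 3 libraries per dose.

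Poria minus the mean of the other extracts was lower in triglyceride assembly for GPAM (-0.92), DGAT1 (-0.87), AGPAT3 (-0.38), DGAT2 (-0.36) and AGPAT1 (-0.12), and higher for LPIN1 (0.52) and LPIN2 (0.37). Among acyl-CoA synthetases it was higher for ACSL5 (1.03) and ACSL3 (0.51) and lower for ACSL1 (-0.45). Desaturases split between FADS3 (0.84) and FADS1 (-0.25) and FADS2 (-0.23), and elongases between ELOVL1 (0.14) and ELOVL2 (-0.29). In chain synthesis and its control the difference was -0.34 for ACACB, -0.30 for SLC25A1, -0.26 for ACSS2, 0.14 for ACLY and 0.20 for SREBF1. In lipolysis and export it was -0.36 for PNPLA3, -0.17 for MTTP and 0.21 for PNPLA2. Some of these calls were lost when 1 library was left out. They were SREBF1 (adjusted p up to 0.118) and PNPLA2 (up to 0.0974), each at most without replicate 3 of Poria at 20 µg/mL, AGPAT1 (up to 0.152, without replicate 2 at 20 µg/mL) and ELOVL1 (up to 0.133, without replicate 3 at 500 µg/mL).

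Licorice minus ginseng was lower for DGAT2 (-0.47), GPAM (-0.43), PNPLA3 (-0.32), ACSL4 (-0.31), ACSL5 (-0.31), ACSS2 (-0.30), FADS2 (-0.22) and ACSL1 (-0.18). It was higher for AGPAT2 (0.86) and ELOVL1 (0.20). The call for ELOVL1 was lost in 9 of 12 fits that left out 1 library (adjusted p up to 0.149, without replicate 2 of licorice at 20 µg/mL) and without a filter (0.238). That for ACSL1 was lost in 6 of 12 (up to 0.166, without replicate 1 of ginseng at 20 µg/mL) and without a filter (0.183).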

How the results depend on the processing

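Of 227 calls of members, 170 kept their call and direction under all alternatives run for them, 57 lost the call under at least 1, and 0 reversed. Without a filter, the members called became 2 with Atractylodes at 500 µg/mL (1 in the reported fit) and 0, 1 and 3 over the doses of Atractylodes, ginseng and peony (1, 2 and 5). With only the groups compared, the dose trends of Atractylodes, ginseng, angelica and peony had 0, 1, 1 and 2 members called. DESeq2 called 2 members with Atractylodes at 500 µg/mL and 2 over its doses. The causes were not tested.

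Leaving out 1 library at a time gave 23 to 25 members with wortmannin. At 500 µg/mL it gave 21 to 24 with Poria, 0 to 5 with Atractylodes, 16 to 18 with licorice, 9 to 11 with ginseng, 13 to 15 with angelica and 14 to 18 with peony. Over the doses it gave 23 to 27 with Poria, 0 to 1 with Atractylodes, 14 to 17 with licorice, 1 to 2 with ginseng, 2 to 4 with angelica and 3 to 5 with peony. The joint test called 23 to 26, Poria against the other extracts 21 to 25, Poria minus Atractylodes 18 to 20, licorice minus ginseng 8 to 10 and angelica minus peony 0 to 0. The sums over the 6 extracts were 46 to 61 at 100 µg/mL and 24 to 40 at 20 µg/mL, with 24 without replicate 1 or 2 of vehicle (38 with all). The count of 5 with Atractylodes came without its replicate 1 at 500 µg/mL. The count of 2 with angelica came without replicate 1 or 2 at 20 or replicate 2 at 500 µg/mL (3 without replicate 3 at 500 µg/mL), and that of 3 with peony without replicate 1 or 3 at 500 or replicate 3 at 20 µg/mL.

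The replicate number, which labels give in each group, did not pair the libraries in general: deviations of same-numbered libraries correlated above 0.1 in all 3 pairs only over the doses of peony. With the replicate block, wortmannin had 26 members called, the Poria trend 24 and the ginseng trend 3, and ACSL5 with wortmannin lost its call (edgeR's adjusted p = 0.0506).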
